A study of Mus musculus with 18 samples.

Results

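Myc and 6 genes of amino acid and iron uptake were followed on 18 expression arrays of splenic natural killer (NK) cells. The genes are Myc, Slc7a5, Slc3a2, Slc1a5, Slc38a1, Slc38a2 and Tfrc. They were chosen by name, and each was represented by the probe set that carries its symbol alone, with the highest mean over the 18 arrays where there were several. All 7 were found among 19938 genes with such a probe set (35399 probe sets in all). Only Slc38a1 had a second probe set. No filter on low values was applied, so all 7 were tested in every comparison.

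The NK cells came from Runx3 -/- mice (knockout, KO) and Runx3 +/+ mice (wild type, WT) of the ICR strain, 6 weeks old and labelled male or female. All mice, WT included, had received 2 injections, 2 days apart, of IL15/Ra complexes, in which interleukin-15 is carried by the alpha chain of its receptor. After negative selection of NK cells, NKp46+ cells were sorted as immature CD27+CD11b- cells (CD27), mature CD27+CD11b+ cells (DP) and mature CD27-CD11b+ cells (CD11b), with 3 arrays for each of the 6 combinations of subset and genotype. The knockout is labelled only by its genotype, and the labels say neither whether arrays with the same number came from the same animal nor whether animals were pooled, so the p-values measure the spread between these arrays.

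Myc is a transcription factor that binds DNA as a partner of Max and drives genes of ribosome production, nucleotide synthesis and nutrient uptake. Slc7a5 and Slc3a2 form the transporter that brings leucine and other large neutral amino acids into the cell, and Slc1a5, Slc38a1 and Slc38a2 take up glutamine and other small neutral amino acids. In activated lymphocytes, NK cells among them, amino acid uptake through Slc7a5 is known to help keep up Myc protein and mTORC1 signalling. Tfrc, the transferrin receptor, takes up iron and is a classic surface marker of proliferating cells. Runx3 is a Runt-domain transcription factor with known roles in interleukin-15 responses of NK cells.

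The deposited log2 values (RMA signal) lay between 3.91 and 14.96, the correlation between any 2 arrays was 0.960 to 0.995, and the median SD within groups was 0.14. Runx3 itself had a mean of 10.84 to 11.27 in the KO groups, against 11.45 to 11.76 in the WT groups, and it fell in each subset (averaged difference -0.55 log2, limma adjusted p = 0.000116). Where the probes lie relative to the deleted part is not given in the sources used here. Ncr1, which encodes NKp46, lay between 13.45 and 13.77 on the KO arrays and between 13.63 and 13.81 on the WT arrays. By mean, Cd27 was lower and Itgam, which encodes CD11b, was higher in the CD11b sort than in the CD27 sort in both genotypes.

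The 3 arrays of KO replicate 3 stood apart. Mki67, which encodes the proliferation antigen Ki-67, read 12.33 to 12.59 on them, against 10.32 to 11.04 on the other KO arrays and 8.90 to 9.51 on the WT arrays. On the CD11b array of KO replicate 3, the macrophage and neutrophil lysozyme gene Lyz2 read 12.27, against 7.96 and 5.02 on the other KO arrays and at most 5.32 in WT. Xist, the RNA of the inactive X chromosome, was low (5.13 to 5.69) on the arrays of KO replicates 1 and 2 and WT replicate 1, and high (12.48 to 13.004) on the arrays of KO replicate 3 and WT replicates 2 and 3. Eif2s3y, a gene of the Y chromosome, read 11.02 to 11.15 on the low-Xist arrays. On the high-Xist arrays it read 6.83 to 9.10 in KO replicate 3, 6.44 to 8.12 in WT replicate 2 and 4.86 to 5.53 in WT replicate 3. Why Eif2s3y differed among the high-Xist arrays was not tested. Results are therefore given with and without its 3 arrays where they depend on them.

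Promoter windows of 250 bases before to 50 bases after an annotated start of a gene were available from RefSeq (GRCm38.p6) for 3 of the 7 genes, as 4 windows. Those of Tfrc and Slc3a2 are shown because they hold the Runx motif, the short sequence that Runt-domain proteins recognise. Capitals mark the matches, and each line runs 5′ to 3′ along the gene's own strand.
Tfrc, chr16:32608646-32608945, plus strand: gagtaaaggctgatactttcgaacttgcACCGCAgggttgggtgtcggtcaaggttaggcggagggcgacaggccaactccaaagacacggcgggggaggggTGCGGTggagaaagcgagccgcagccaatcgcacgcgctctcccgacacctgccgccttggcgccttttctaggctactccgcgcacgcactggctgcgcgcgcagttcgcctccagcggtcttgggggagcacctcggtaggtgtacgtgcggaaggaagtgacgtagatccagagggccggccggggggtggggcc
Slc3a2, chr19:8713848-8714147, minus strand: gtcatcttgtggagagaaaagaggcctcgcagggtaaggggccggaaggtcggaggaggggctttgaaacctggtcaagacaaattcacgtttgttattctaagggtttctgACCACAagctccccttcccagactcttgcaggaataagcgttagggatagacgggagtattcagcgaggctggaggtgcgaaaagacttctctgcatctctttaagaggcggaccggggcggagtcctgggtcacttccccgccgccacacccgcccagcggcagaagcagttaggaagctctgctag
The Tfrc window holds TGCGGT at position -148 and its reverse complement at -222, counted from the gene's start. The Slc3a2 window holds the reverse complement of TGTGGT at -138, counted from the start on which that window was built. This start lies inside the gene's span of 8706882 to 8723369, not at its 5′ end. Over 32851 windows of the same length and both strands, 6.45% hold TGCGGT and 16.8% hold TGTGGT. The second Tfrc window, which overlaps the first, and the Slc38a2 window hold neither. None of the 4 windows holds CACGTG, the E-box that Myc and Max bind (7.15% of all windows), or TGATGNAA, a motif of Atf4 with its C/EBP partners (3.97%). A match of letters is a description of the sequence and says nothing of binding.

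Myc was lower in KO than in WT by its mean in every subset, but the difference did not pass the test with all arrays. KO replicate 3 read far above the other KO arrays. In CD27 cells the 3 KO arrays read 9.12, 9.05 and 10.34, against 9.59, 10.06 and 9.995 in WT. In DP cells they read 8.98, 9.04 and 9.81, against 9.62, 9.53 and 9.84 in WT. In CD11b cells they read 8.40, 8.48 and 9.46, against 9.13, 9.45 and 9.92 in WT. The values are given in order of replicate number. KO replicates 1 and 2 lay below every WT array of their subset, while KO replicate 3 lay within or, in CD27 cells, above the WT range. How many of all probe sets place KO replicates 1 and 2 below every WT array was not counted.

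The KO means of Myc were 9.51 ± 0.73, 9.28 ± 0.46 and 8.78 ± 0.59 in CD27, DP and CD11b cells, against 9.88 ± 0.26, 9.66 ± 0.16 and 9.50 ± 0.40 in WT (SD, n = 3 each). The KO minus WT differences were -0.38, -0.38 and -0.72 log2 (limma adjusted p = 0.805, 0.773 and 0.418). From high to low the groups ran WT CD27, WT DP, KO CD27, WT CD11b, KO DP and KO CD11b, and the arrays of each pair of neighbours in this order overlapped. Averaged over subsets, Myc was 1.41-fold lower in KO (log2 -0.49, 95% interval 1.04- to 1.91-fold, adjusted p = 0.179).

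With KO replicate 3 left out, Myc fell 2.09-fold in CD11b cells (95% interval 1.55- to 2.83-fold, limma adjusted p = 0.0255) and 1.79-fold averaged over subsets (1.5- to 2.13-fold, adjusted p = 0.00126). The differences of 1.73-fold in CD27 cells (adjusted p = 0.0833) and 1.57-fold in DP cells (adjusted p = 0.274) did not pass. Both remaining KO arrays were below all 3 WT arrays in each subset, a pattern whose share over all probe sets was not counted. These 2 KO replicates share low Xist with WT replicate 1 only. Their mean was below that WT array by 0.50, 0.61 and 0.69 log2 in the CD27, DP and CD11b subsets. With Xist as a covariate and without KO replicate 3, the averaged difference in Myc was -0.60 (adjusted p = 0.0228). A sample here means the 3 arrays of a genotype with the same replicate number, which the labels do not tie to the same animal. Averaging the 3 arrays of each sample before the limma fit left the Myc difference without a call. This held both with KO replicate 3 (adjusted p = 0.613) and without that replicate (adjusted p = 0.123).

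**Figure D1:**
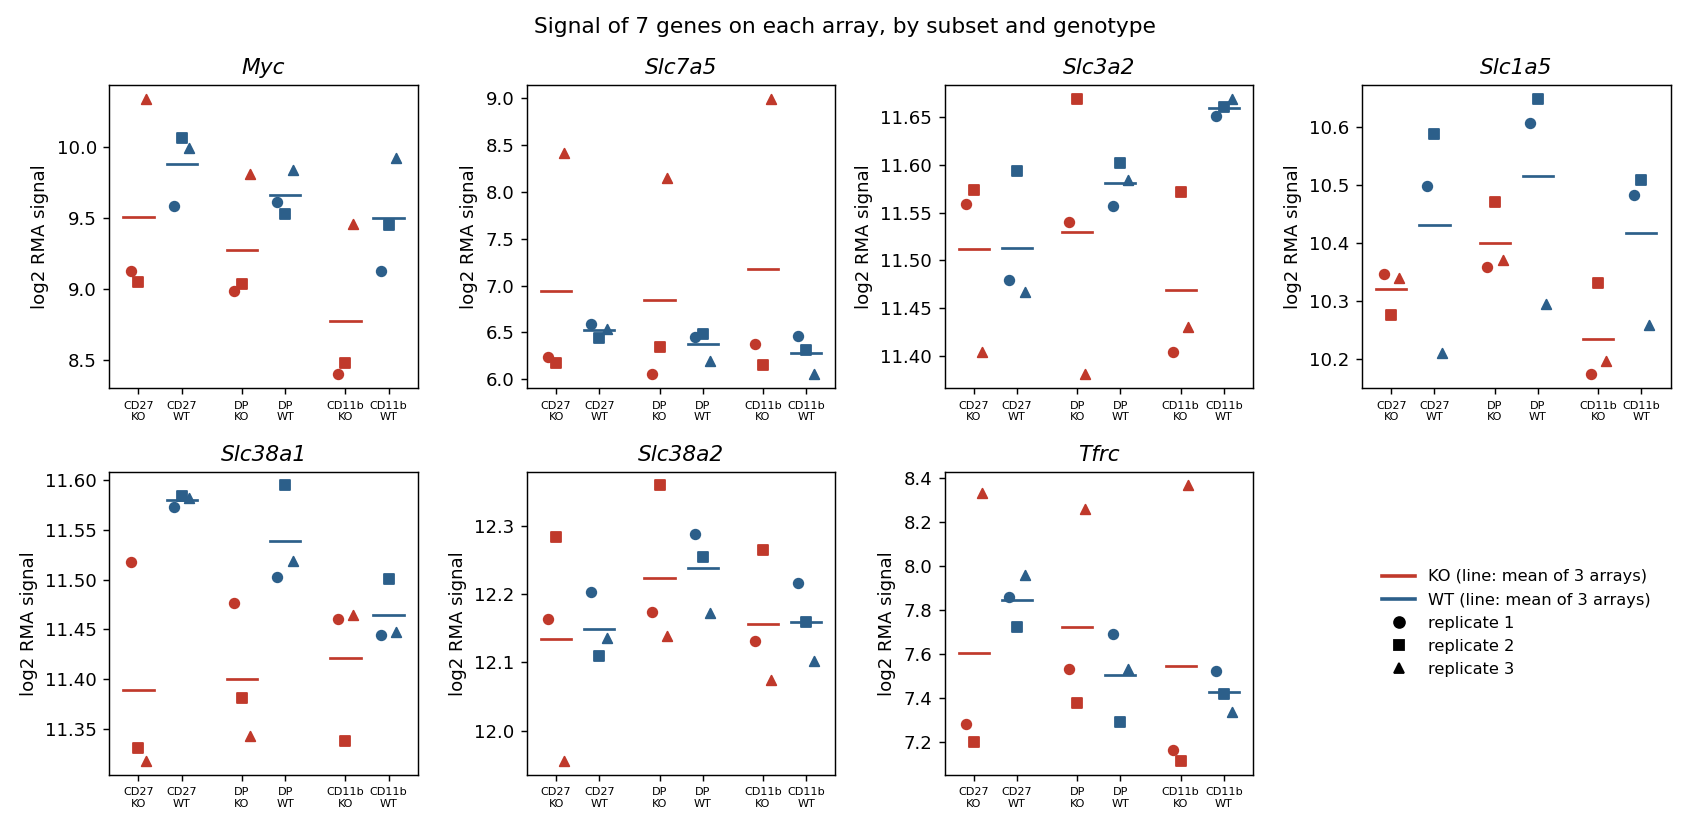
Log2 RMA signal (vertical axis) of the 7 genes on each array, by subset and genotype, with the replicate number as the marker shape and the mean of 3 arrays as a line. KO replicate 3 (triangles) lies above the other KO arrays for Myc, Slc7a5 and Tfrc in all 3 subsets, with Slc7a5 at 8.15 to 8.99 there.

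Slc7a5, the light chain that carries large neutral amino acids, showed the largest spread among the KO arrays. In CD27 cells it read 6.24, 6.17 and 8.41 on the KO arrays, against 6.59, 6.44 and 6.54 in WT. In DP cells it read 6.06, 6.35 and 8.15 in KO, against 6.45, 6.48 and 6.19 in WT. In CD11b cells it read 6.38, 6.15 and 8.99 in KO, against 6.46, 6.31 and 6.06 in WT. The 3 arrays of KO replicate 3 were the highest of all 18, by 1.95 to 2.73 log2 above the mean of the other KO arrays, while the other 15 arrays stayed between 6.06 and 6.59.

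The KO means of Slc7a5 were 6.94 ± 1.27, 6.85 ± 1.13 and 7.18 ± 1.58 in CD27, DP and CD11b cells, against 6.52 ± 0.077, 6.37 ± 0.16 and 6.28 ± 0.20 in WT. The 3 KO groups ranked above the 3 WT groups by mean, but the arrays of every pair of neighbouring groups overlapped. The KO minus WT difference averaged 0.60 log2 (95% interval -0.29 to 1.49, limma adjusted p = 0.472) and did not pass in any subset (adjusted p = 0.919, 0.870 and 0.681). Leaving out KO replicate 3 gave -0.17 (adjusted p = 0.278), so the direction of the mean rests on that replicate.

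Slc3a2, the CD98 heavy chain that pairs with Slc7a5 and also serves integrin signalling, stayed between 11.38 and 11.67 on the 18 arrays. Its KO means were 11.51 ± 0.094, 11.53 ± 0.14 and 11.47 ± 0.090 in CD27, DP and CD11b cells, against 11.51 ± 0.070, 11.58 ± 0.022 and 11.66 ± 0.0093 in WT. In CD11b cells the KO arrays read 11.40, 11.57 and 11.43, against 11.65, 11.66 and 11.67 in WT. All 3 KO arrays were below all WT arrays there, yet the 1.14-fold difference did not pass (95% interval 1.02- to 1.28-fold, limma adjusted p = 0.282). By mean, WT CD11b ranked highest and did not overlap with WT DP, the next in order (CD11b arrays were above DP arrays in WT for 9.12% of all probe sets), whereas all later neighbours overlapped.

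Slc1a5, a glutamine transporter that exchanges neutral amino acids, was 0.11 to 0.18 log2 lower in KO by its means, and its groups overlapped in every subset. In CD27 cells the KO arrays read 10.35, 10.28 and 10.34, against 10.498, 10.59 and 10.21 in WT. In DP cells they read 10.36, 10.47 and 10.37, against 10.61, 10.65 and 10.29 in WT. In CD11b cells they read 10.17, 10.33 and 10.20, against 10.48, 10.51 and 10.26 in WT. WT replicate 3 was the lowest WT array of each subset, below all KO arrays in CD27 and DP cells and among them in CD11b cells. The averaged difference was -0.14 log2 (95% interval -0.27 to -0.0035, adjusted p = 0.225 by limma). The 3 WT groups ranked above the 3 KO groups by mean, and of the neighbours in that order only KO DP and KO CD27 did not overlap (DP arrays were above CD27 arrays in KO for 5.79% of all probe sets).

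Slc38a1, the sodium-coupled neutral amino acid transporter SNAT1, was the only one of the 7 genes whose averaged KO minus WT difference passed with all arrays, and the difference was small. In CD27 cells the KO arrays read 11.52, 11.33 and 11.32, against 11.57, 11.58 and 11.58 in WT. In DP cells they read 11.48, 11.38 and 11.34, against 11.50, 11.60 and 11.52 in WT. The KO arrays were below all WT arrays in both of these subsets. In CD11b cells the KO arrays, at 11.46, 11.34 and 11.46, overlapped with the WT arrays, at 11.44, 11.50 and 11.45.

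The KO minus WT difference in Slc38a1 was -0.19, -0.14 and -0.04 log2 in CD27, DP and CD11b cells (limma adjusted p = 0.208, 0.505 and 0.866). The average of -0.12, a 1.09-fold decrease (95% interval 1.03- to 1.15-fold), passed narrowly (adjusted p = 0.0490). It did not pass without KO replicate 3 (-0.11, adjusted p = 0.141) or with the arrays of a sample averaged first (adjusted p = 0.427). By mean the 3 WT groups ranked above the 3 KO groups, and of neighbours in that order only WT DP and WT CD11b did not overlap (CD11b arrays were below DP arrays in WT for 7.05% of all probe sets). The second probe set of Slc38a1 lay between 7.43 and 8.61 and correlated weakly with the first over the 18 arrays (r = 0.19). It also fell in the average with all arrays (-0.36, limma adjusted p = 0.0469), but did not pass without KO replicate 3 (-0.325, adjusted p = 0.109). By its own values the largest difference with all arrays was in CD11b cells (-0.59, adjusted p = 0.139).

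Slc38a2, the related transporter SNAT2 that amino acid shortage induces, had close means in both genotypes. Its KO means were 12.13 ± 0.17, 12.22 ± 0.12 and 12.16 ± 0.098 in CD27, DP and CD11b cells, against 12.15 ± 0.049, 12.24 ± 0.059 and 12.16 ± 0.057 in WT. The averaged difference was -0.01 log2, with a 95% interval of -0.12 to 0.09 (limma adjusted p = 0.939). All pairs of neighbouring groups overlapped.

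Tfrc, the transferrin receptor, resembled Slc7a5 and Myc in that KO replicate 3 was high. In CD27 cells the KO arrays read 7.28, 7.20 and 8.33, against 7.86, 7.72 and 7.96 in WT. In DP cells they read 7.54, 7.38 and 8.26, against 7.69, 7.29 and 7.53 in WT. In CD11b cells they read 7.16, 7.12 and 8.37, against 7.52, 7.42 and 7.34 in WT. KO replicate 3 gave the 3 highest of the 18 Tfrc values. KO replicates 1 and 2 were below every WT array in CD27 and CD11b cells and among them in DP cells. The share of all probe sets with KO replicates 1 and 2 below every WT array was not counted.

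The KO means of Tfrc were 7.61 ± 0.63, 7.73 ± 0.47 and 7.55 ± 0.71 in CD27, DP and CD11b cells, against 7.85 ± 0.12, 7.51 ± 0.20 and 7.43 ± 0.093 in WT. From high to low the groups ran WT CD27, KO DP, KO CD27, KO CD11b, WT DP and WT CD11b, with overlap between all neighbours. The averaged difference was 0.03 log2 (limma adjusted p = 0.954). With KO replicate 3 left out, Tfrc fell 1.52-fold in CD27 cells (95% interval 1.28- to 1.80-fold, adjusted p = 0.0273) and 1.24-fold averaged over subsets (1.13- to 1.37-fold, adjusted p = 0.0147). In DP and CD11b cells the differences of -0.05 and -0.29 did not pass (adjusted p = 0.932 and 0.313). The genotype effect in DP minus that in CD27 cells was 0.55 without this replicate and did not pass over all probe sets (adjusted p = 0.882). With Xist as a further covariate the averaged difference was -0.41 (adjusted p = 0.0204), and with the arrays of a sample averaged first it was -0.31 and did not pass (adjusted p = 0.221).

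Across the 7 genes, KO against WT gave 0 passing members in CD27, DP and CD11b cells, where 0.907%, 0.395% and 1.29% of all probe sets passed. At an unadjusted p under 0.05 there was 1 member in each subset and 3 in the average, where 11.6%, 9.64%, 13% and 20.8% of all probe sets were. In the average over subsets 1 member passed, Slc38a1, where 8.08% of all probe sets passed and 5.28% fell. The median difference of the 7 genes was -0.11, -0.05 and -0.04 log2 in CD27, DP and CD11b cells and -0.08 in the average, beside -0.01, -0.02, -0.01 and -0.02 over all probe sets. Groups that did not overlap, with KO lower, were found for Slc38a1 in CD27 and DP cells and for Slc3a2 in CD11b cells, a pattern shown by 10.7%, 8.53% and 11.2% of all probe sets in those subsets. Without KO replicate 3, Tfrc alone fell among CD27 cells, no member among DP cells, Myc alone among CD11b cells, and 2 members fell in the average (Myc and Tfrc), beside 0.751%, 0.192%, 0.655% and 3.57% of all probe sets. In DP cells Myc had an unadjusted p of 0.00704 in that fit of limma.

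**Figure D2:**
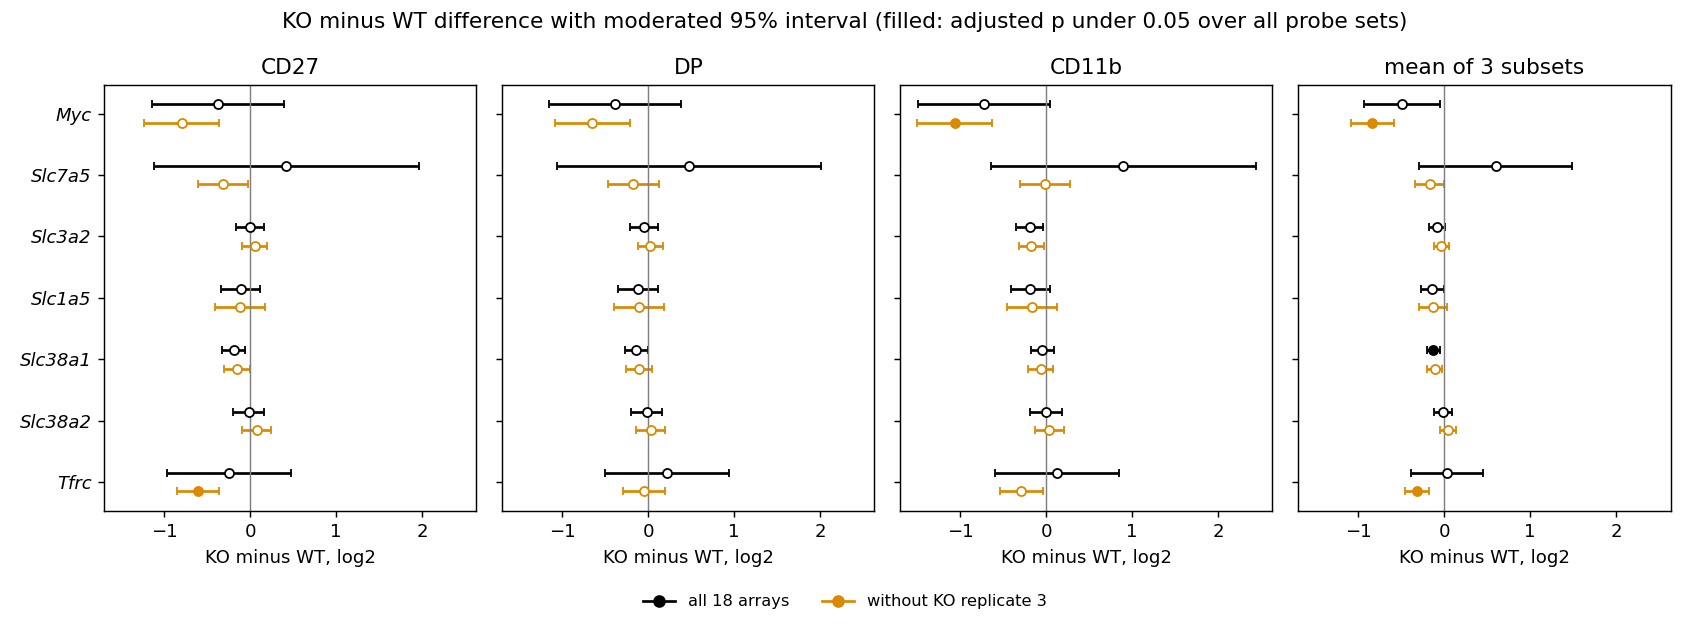
KO minus WT difference in log2 (horizontal axis) of each gene in the 3 subsets and averaged, with moderated 95% intervals, for all 18 arrays (black) and without KO replicate 3 (orange); filled points have an adjusted p under 0.05. Without that replicate the intervals of Myc, Slc7a5 and Tfrc narrow, and the average of Slc7a5 is -0.17, against 0.60 with all arrays.

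No test of a genotype effect that differs between subsets passed for any of the 7 genes (moderated F test of limma, adjusted p = 0.99999 for each), where 0.0113% of all probe sets passed. The lowest unadjusted p of this F test was 0.209, for Slc3a2, so 0 members were under 0.05. The single interaction of lowest unadjusted p was that of Slc3a2 in CD11b against CD27 cells, at -0.19 log2 (adjusted p = 0.907).

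Maturation from CD27 over DP to CD11b cells moved none of the 7 genes past the threshold in either genotype. In WT, 0.557%, 0.525% and 5% of all probe sets passed for the step to DP, the step from DP to CD11b and the whole span to CD11b, and for the same spans in KO 0.0198%, 0.514% and 2.07% passed. At an unadjusted p under 0.05 there were also 0 members in each of these comparisons, where 8.25%, 8.36% and 16.8% of all probe sets in WT and 5.66%, 8.12% and 13% in KO were. The WT means of Tfrc, Myc, Slc7a5 and the first probe set of Slc38a1 were highest in CD27, lower in DP and lowest in CD11b cells. Those of Slc3a2 had the opposite order. For CD11b against CD27 in WT the differences were -0.42 for Tfrc, -0.38 for Myc, -0.24 for Slc7a5, -0.12 for Slc38a1 and 0.15 for Slc3a2 (adjusted p = 0.610, 0.675, 0.926, 0.389 and 0.349 by limma).

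The WT arrays of CD11b and CD27 cells did not overlap for Tfrc and Slc38a1, lower in CD11b cells as in 11.8% of all probe sets, or for Slc3a2, higher as in 16.4%. The second probe set of Slc38a1 had the opposite direction, at 0.48 log2 for CD11b against CD27 in WT with no overlap of the arrays (adjusted p = 0.163 by limma). The spread in this test is shared by all groups and includes KO replicate 3. When that replicate was left out, Tfrc fell 1.34-fold in WT CD11b cells (95% interval 1.15- to 1.56-fold, adjusted p = 0.0267), as 3.05% of all probe sets did. In a fit of only the groups compared its adjusted p was 0.0462. Markers of T cells moved with it, at array means of 6.73 to 6.97 in WT CD11b cells, against 8.46 to 8.96 in WT CD27 cells. Cd3e fell 21.5-fold, Cd3d 15.9-fold, Cd3g 4.65-fold and Cd28 2.55-fold with all arrays (limma adjusted p = 0.000231, 2.41e-06, 0.000454 and 3.08e-05), and 5 of the 7 T cell genes fell without KO replicate 3. Their part in the Tfrc difference was not tested. In KO, CD11b against CD27 cells gave -0.73 for Myc (adjusted p = 0.417), 0.23 for Slc7a5 and -0.06 for Tfrc, and without replicate 3 it gave -0.65 for Myc (adjusted p = 0.209).

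Genes of dividing cells differed between the genotypes in the same arrays. Of the 14 measured genes of a list of dividing-cell markers, 8 rose in KO in the average over subsets and none fell, with a median of 1.98 log2, where 2.8% of all probe sets rose. In the fit without KO replicate 3, 11 rose and the median was 0.99, where 2.74% of all probe sets rose. The mean signal of the list was 7.78 to 10.87, 8.23 to 11.25 and 8.44 to 10.94 on the KO arrays of CD27, DP and CD11b cells, against 7.17 to 7.35, 7.26 to 7.29 and 7.42 to 7.57 on the WT arrays. KO replicate 3 thus combined the highest Mki67 with the highest Slc7a5 and Tfrc, while KO replicates 1 and 2 had more Mki67 and less Myc than all WT arrays of their subset.

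As a description over 18 arrays, which share genotypes, subsets and samples, the correlation with Mki67 was -0.17 for Myc, 0.73 for Slc7a5 and 0.45 for Tfrc. Over the 15 arrays without KO replicate 3 it was -0.90, -0.43 and -0.60. The sign for Slc7a5 and Tfrc thus depended on these 3 arrays. The part that dividing cells have in the values of these genes was not tested, and in sorted populations fewer cells of a type and less RNA per cell cannot be told apart.

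**Figure D3:**
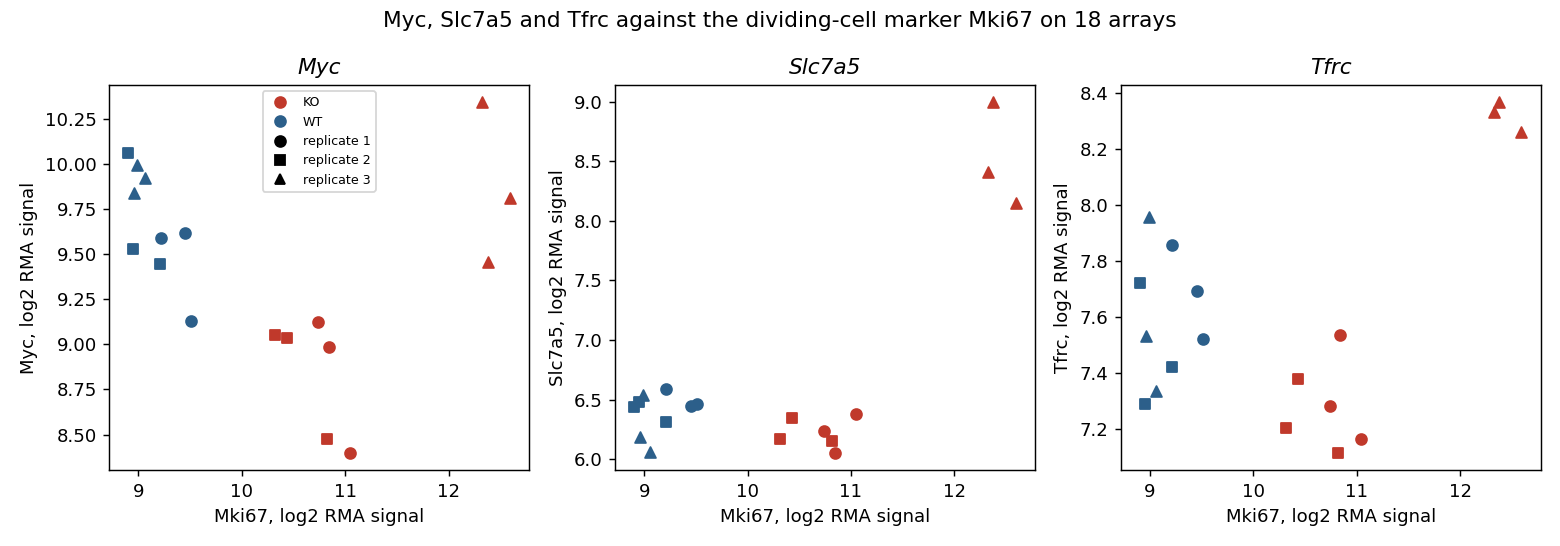
Log2 RMA signal of Myc, Slc7a5 and Tfrc (vertical axes) against that of Mki67 (horizontal axis) on 18 arrays, coloured by genotype and shaped by replicate number. The KO arrays lie right of all WT arrays, with KO replicate 3 farthest right at 12.33 to 12.59, where Slc7a5 and Tfrc are highest.

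Markers of other cells were also higher on some KO arrays. In CD11b cells the mean of 8 neutrophil genes was 5.16 to 9.30 in KO, against 5.11 to 5.19 in WT. For 8 genes of dendritic cells and MHC class II the mean was 5.41 to 9.50 in KO, against 5.32 to 5.41 in WT, and for 7 macrophage and monocyte genes it was 5.47 to 7.38 in KO, against 5.51 to 5.63 in WT. In the averaged comparison by limma with all arrays 0 genes of these 3 lists passed, and 0 neutrophil, 1 dendritic cell and 1 macrophage gene had an unadjusted p under 0.05, as 20.8% of all probe sets did. Erythroid genes, of which 6 of 11 were measured, had array means of 5.30 to 5.80 in KO, against 5.31 to 5.40 in WT, over all subsets. Of these 0 rose and 1 fell in the average, beside 2.8% and 5.28% of all probe sets. Likewise over all subsets, the 8 NK cell genes had array means of 12.62 to 13.04 in KO, against 12.76 to 13.12 in WT. In the average 0 of them rose and 1 fell with all arrays, beside the same 2.8% and 5.28%. Without KO replicate 3, 1 rose and 0 fell, beside 2.74% and 3.57% of all probe sets. For 7 T cell genes the array means were 6.90 to 8.15 in KO, against 6.73 to 8.96 in WT, and for 7 B cell genes 5.20 to 5.91, against 5.10 to 5.54. In the average 0 of these T and B cell genes passed by limma, and 3 and 1 had an unadjusted p under 0.05. In CD27 cells the T cell means did not overlap, at 7.97 to 8.15 in KO, against 8.46 to 8.96 in WT. There Cd3e and Cd3d, which encode chains of the T cell receptor complex, fell 8.01-fold and 2.50-fold in KO (limma adjusted p = 0.0179 and 0.0476). Without KO replicate 3, the fit in which Tfrc fell in CD27 cells, Cd3e fell 10.4-fold (adjusted p = 0.0279), Cd3d was 2.31-fold lower and did not pass (adjusted p = 0.0737), and Cd4 rose 1.93-fold (adjusted p = 0.00898). On the CD27 array of KO replicate 3, where Myc was highest, the mean of the dendritic cell and MHC class II genes was 6.37, against 5.44 and 5.41 on the other KO arrays, and that of the erythroid genes was 5.80, against 5.31 on both. The B cell mean there was 5.70, against 5.31 and 5.38, and the neutrophil mean was 5.24, against 5.12 and 5.17. The part of these other cells in the results was not tested.

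The calls of the gene lists in the averaged comparison rest on treating the 3 arrays of a genotype and replicate number as independent. Such arrays are called a sample here, though the labels do not say whether they came from the same animal. With sample means, which called 71 of all probe sets, 0 genes of any list passed, the lowest adjusted p among the 6 lists of Myc, transport, iron and sensing genes being 0.0768 (Slc43a2, limma). With the arrays of a genotype and number as a random block, Mycn, Slc7a6 and Fbxl5 lost their calls (adjusted p = 0.0636, 0.0650 and 0.116), and the other genes of these 6 lists that passed in the average did so there as well. List results without KO replicate 3 set KO arrays of low Xist against WT arrays of low and high Xist. The part of this difference in the list results was not tested.

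Genes that act with Myc on DNA moved in both directions. Of 12 genes of the Myc, Max and Mlx network, all measured, 3 rose and 2 fell in KO in the average over subsets, beside 2.8% and 5.28% of all probe sets, with a median of 0.00 beside -0.02. Mxd1 and Mxi1, which encode Max partners, rose by 0.51 and 0.46 log2 (limma adjusted p = 0.00293 and 0.00460). The Myc paralog Mycn rose by 0.46 (adjusted p = 0.0217). Mga, which encodes another Max partner, fell by 0.32 (adjusted p = 0.00147) and Mnt fell by 0.27 (adjusted p = 0.0187). Mxd1 averaged 11.30 ± 0.19, 11.27 ± 0.23 and 11.08 ± 0.28 in KO CD27, DP and CD11b cells, against 10.71 ± 0.14, 10.83 ± 0.11 and 10.59 ± 0.17 in WT. In the fit without KO replicate 3 there were 4 that rose and 2 that fell, beside 2.74% and 3.57% of all probe sets. Mxd1 and Mxi1 rose by 0.61 and 0.59 there (limma adjusted p = 0.00154 and 0.000205). With all arrays Mga also fell in CD27 cells alone (-0.40, adjusted p = 0.0447), and without KO replicate 3 it did not pass there (-0.42, adjusted p = 0.0664).

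Among 22 textbook Myc targets of ribosome and polyamine synthesis, 1 rose and 1 fell with all arrays (median 0.00), beside 2.8% and 5.28% of all probe sets. When KO replicate 3 was left out, there were 0 that rose and 6 that fell, beside 2.74% and 3.57% (median -0.17, beside 0.00 over all probe sets). Polr1b, a core subunit of RNA polymerase I, fell in both settings, by 0.66 log2 (limma adjusted p = 0.000629) and by 0.78 (adjusted p = 8.47e-05). It averaged 7.73 ± 0.40, 7.60 ± 0.091 and 7.63 ± 0.14 in KO CD27, DP and CD11b cells, against 8.47 ± 0.22, 8.20 ± 0.077 and 8.28 ± 0.13 in WT. The KO arrays were below all WT arrays in each subset, a pattern shown by 10.7%, 8.53% and 11.2% of all probe sets. Cad, which starts pyrimidine synthesis, rose by 0.44 with all arrays (adjusted p = 0.0205), and without KO replicate 3 it did not pass (0.37, adjusted p = 0.109). The genes that fell without KO replicate 3 were Polr1b, Gnl3, which encodes the nucleolar protein nucleostemin (-0.45, adjusted p = 0.000278), Odc1 of polyamine synthesis (-0.36, adjusted p = 0.0400), the snoRNP gene Nop56 (-0.32, adjusted p = 0.00573), Nolc1 and Eif4a1. For Gnl3 the CD27 array of KO replicate 3 read 8.47, above the WT range of 7.70 to 7.86, and the other KO arrays read 7.07 and 7.21.

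Of 26 other amino acid transporters, all measured, 2 rose and 2 fell in KO in the average, beside 2.8% and 5.28% of all probe sets (median 0.02). Slc43a2, a facilitated transporter of branched-chain and other neutral amino acids, rose by 0.52 log2 (limma adjusted p = 0.000104). It averaged 7.91 ± 0.044, 7.83 ± 0.12 and 8.17 ± 0.16 in KO CD27, DP and CD11b cells, against 7.53 ± 0.19, 7.42 ± 0.048 and 7.40 ± 0.13 in WT. In CD11b cells alone the rise of 0.77 passed (limma adjusted p = 0.00152). Slc16a10, an aromatic amino acid transporter, rose by 0.38 (adjusted p = 0.00896). Slc3a1, the heavy chain paralog of Slc3a2 that serves cystine transport, fell by 0.51 (adjusted p = 0.00949) with all arrays and did not pass without KO replicate 3 (-0.45, adjusted p = 0.0554). Slc7a6, another light chain that pairs with Slc3a2, fell by 0.28 (adjusted p = 0.0284). Without KO replicate 3, 3 rose and 2 fell, beside 2.74% and 3.57% of all probe sets. Among them was the arginine transporter Slc7a1, which fell by 0.44 (limma adjusted p = 0.00979).

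Of 21 other iron genes, 19 were measured, and 0 rose and 3 fell in KO in the average, beside 2.8% and 5.28% of all probe sets (median -0.03). Slc39a14, an importer of iron and zinc not bound to transferrin, fell by 0.43 log2 (limma adjusted p = 0.000219), and by 0.56 in CD27 cells and 0.47 in CD11b cells (adjusted p = 0.0102 and 0.0213). It averaged 6.39 ± 0.12 and 6.68 ± 0.066 in KO CD27 and CD11b cells, against 6.94 ± 0.052 and 7.15 ± 0.23 in WT. Slc25a37, which encodes a mitochondrial iron importer, fell by 0.34 (adjusted p = 0.00404). Fbxl5, an iron-sensing subunit of a ubiquitin ligase, fell by 0.26 (adjusted p = 0.0427). Without KO replicate 3, Slc39a14 and Slc25a37 fell in the average as well, whereas Fbxl5 did not pass (adjusted p = 0.109), nor did Slc39a14 in CD11b cells (-0.45, adjusted p = 0.0832).

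Of the iron list, Slc11a2 and Steap3 of the transferrin cycle changed with maturation in WT, in opposite directions. Slc11a2, the transporter that moves iron out of the endosome, fell 3.18-fold in CD11b against CD27 cells of WT (limma adjusted p = 0.000649) and 2.49-fold in KO (adjusted p = 0.00770). It averaged 9.51 ± 0.31, 8.95 ± 0.42 and 8.19 ± 0.24 in KO CD27, DP and CD11b cells, against 9.90 ± 0.34, 9.32 ± 0.30 and 8.23 ± 0.16 in WT. Steap3, the endosomal ferric reductase, rose 2.88-fold in WT CD11b cells (adjusted p = 0.000391). It averaged 7.74 ± 0.20, 8.28 ± 0.063 and 8.54 ± 0.088 in KO CD27, DP and CD11b cells, against 7.63 ± 0.46, 8.66 ± 0.36 and 9.15 ± 0.074 in WT. With all arrays these were the only passing genes of the iron list in WT CD11b against CD27 cells, where 5% of all probe sets passed. Slc11a2 was the only one in KO, where 2.07% passed. In the fit without KO replicate 3, Aco1, whose protein controls Tfrc mRNA as an iron-responsive RNA binder, also rose in WT CD11b cells (0.30 log2, limma adjusted p = 0.00858).

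Of 22 genes of the Atf4 and amino acid starvation response, 20 were measured, and 2 rose and 0 fell in KO in the average, beside 2.8% and 5.28% of all probe sets (median 0.05). Ddit4, an inhibitor of mTORC1 induced by stress, rose 2.35-fold (limma adjusted p = 0.00235), and Wars, the tryptophanyl-tRNA synthetase, rose 1.27-fold (adjusted p = 0.00282). These rose without KO replicate 3 as well, as did the mitochondrial folate enzyme Mthfd2 (0.44 log2, adjusted p = 0.0334). In CD11b cells Aldh18a1 of proline synthesis fell by 0.32 log2 with all arrays (adjusted p = 0.0330) and did not pass without KO replicate 3 (adjusted p = 0.0944). In WT CD11b against CD27 cells Wars and the seryl-tRNA synthetase gene Sars rose by 0.62 and 0.59 log2 with all arrays (adjusted p = 0.00222 and 0.00584). Without KO replicate 3, 2 genes of this list rose and 2 fell in that comparison, where 3.05% of all probe sets fell. Those that fell were Mthfd2, by 0.88, and Cebpb, by 0.28 log2 (limma adjusted p = 0.00772 and 0.0239).

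Of 26 genes of mTORC1 and amino acid sensing, 25 were measured, and 0 rose and 4 fell in KO in the average, beside 2.8% and 5.28% of all probe sets (median -0.03). Rptor, the subunit that brings substrates to mTORC1, fell by 0.57 log2 (limma adjusted p = 0.000321). It averaged 9.53 ± 0.22, 9.61 ± 0.19 and 9.57 ± 0.22 in KO CD27, DP and CD11b cells, against 10.06 ± 0.17, 10.19 ± 0.016 and 10.18 ± 0.020 in WT. Its KO arrays were below all WT arrays in each subset, as in 10.7%, 8.53% and 11.2% of all probe sets. The arginine sensor Castor1 fell by 0.54 (adjusted p = 0.0132), the Rag GTPase gene Rragb by 0.52 (adjusted p = 0.000530) and Sesn3, a member of the sestrin family of amino acid sensors, by 0.38 (adjusted p = 0.00404). When KO replicate 3 was left out, 3 rose and 3 fell, beside 2.74% and 3.57% of all probe sets. Castor2 rose by 0.57 log2, Sesn1 by 0.19 and Tsc1 by 0.19 (limma adjusted p = 0.0130, 0.00848 and 0.0483). Those that fell were Rptor, Rragb and Sesn3, and Castor1 did not pass (-0.42, adjusted p = 0.0559). In CD11b cells Rragb and Rptor fell by 0.73 and 0.61 (adjusted p = 0.00834 and 0.0332), and in CD27 cells Sesn3 fell by 0.55 (adjusted p = 0.0449), a call lost without KO replicate 3 (adjusted p = 0.0536). Sesn3 also fell in WT CD11b against CD27 cells, by 0.56 (adjusted p = 0.0130).

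**Figure D4:**
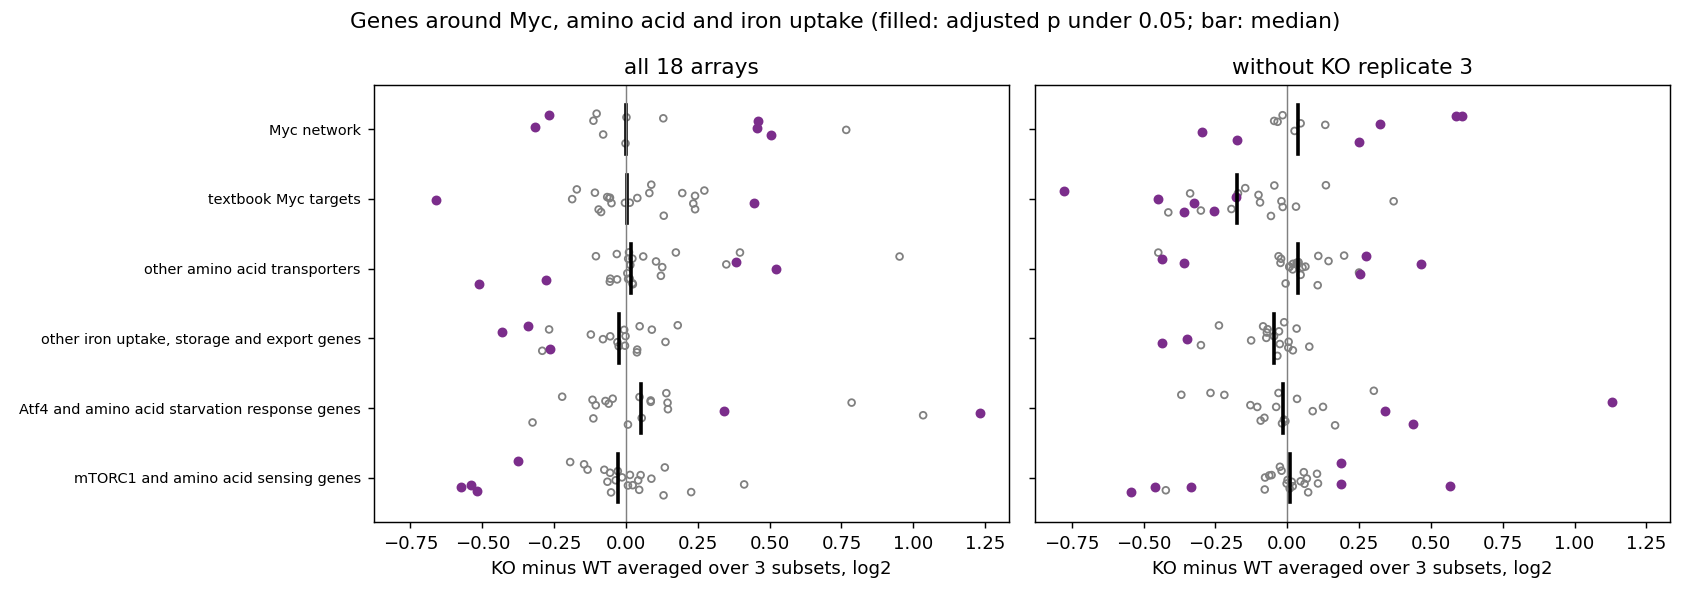
KO minus WT difference averaged over 3 subsets in log2 (horizontal axis) of the measured genes of 6 lists, with all 18 arrays (left) and without KO replicate 3 (right); filled points have an adjusted p under 0.05 and the bar is the median. The Myc targets have a median of 0.00 on the left and -0.17 on the right, where 6 of 22 fell.

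Pairs of the 7 genes were compared over the 18 arrays as a description, the arrays sharing genotype, subset and sample. With all arrays Slc7a5 and Tfrc had the highest correlation (r = 0.86), followed by Myc and Tfrc (0.66). In the 15 arrays without KO replicate 3, Myc and Tfrc had the highest (0.70), followed by the pairs of Slc38a1 with Myc and with Tfrc (0.66 each) and by Slc7a5 with Slc38a1 and with Tfrc (0.58 each). Myc and Slc7a5 gave 0.38 with all arrays and 0.28 without that replicate. Slc7a5 and its partner Slc3a2 ran in opposite directions (-0.68 and -0.31).

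For each gene the 3 most similar profiles among 18515 genes were found by Pearson correlation over the same 18 arrays. They were Psmg2, Dph6 and Abcc1 for Myc (r = 0.92, 0.91 and 0.89), Gatm, Timeless and Fads2 for Slc7a5 (0.97, 0.97 and 0.97) and Pola2, Ifrd2 and Mthfd1 for Tfrc (0.94, 0.94 and 0.94). They were Tmem59, Rnf181 and Hgs for Slc3a2 (0.90, 0.90 and 0.90), Klf10, Cacnb1 and Tubb4a for Slc1a5 (0.87, 0.84 and 0.82), Ptpn6, Pnpla7 and Krtcap3 for Slc38a1 (0.90, 0.88 and 0.85) and Slc17a6, Rgl2 and Leprotl1 for Slc38a2 (0.86, 0.83 and 0.82). Timeless and Pola2 encode proteins of the replication fork. The search used all 18 arrays only, among them those of KO replicate 3, where Slc7a5 and Tfrc read highest. Whether these similarities hold without that replicate was not tested.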

How the data were processed

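RNA of sorted NK cells was measured on 18 Affymetrix arrays. Per the submitters' processing notes, RMA and Partek were used; versions are not given in the sources used here. The deposited values are on a log2 scale, judged from their range, and were used without a filter. Of 35399 probe sets, 21789 have 1 gene symbol, 1621 several and 11989 none in the annotation used. With limma 3.58.1 in R 4.3.3, the 6 group means were estimated jointly from all 18 arrays (12 residual and 2.18 prior degrees of freedom), moderated by eBayes. P-values are two-sided and Benjamini-Hochberg adjusted over all probe sets; a gene passes below 0.05. An exact permutation of 3 against 3 arrays cannot go below p = 0.1. The code was tested on simulated data. The number of arrays limits precision.

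The 7 genes, the 6 gene lists and the marker lists were chosen with earlier results of these data known. The text names the 7 genes, up to 4 passing genes of a list with the largest changes per comparison (named beyond that: Mnt, Nolc1, Eif4a1, Sesn1 and Tsc1, chosen after their values were seen), the 3 most similar profiles, and Runx3, Cd27, Itgam, Ncr1, Mki67, Xist, Eif2s3y and Lyz2 as checks. Genes with no probe set of their own symbol were left out of the counts.

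Deviations from group means of same-numbered arrays correlated within KO (0.213 to 0.642 over 9 pairs, median 0.465). Within WT the correlations were -0.0094 to 0.456 (median 0.323). Pairs with different numbers had medians of -0.335 within KO and -0.149 within WT. Between KO and WT, same-numbered pairs gave -0.0726 to 0.344 (median 0.0205) and pairs with different numbers a median of 0.0078. The numbers thus did not pair KO with WT. The numbers come from the sample titles. Alternatives were cyclic loess, only probe sets with a mean above the median, a robust prior that follows intensity (statmod 1.5.0), the compared groups alone, array weights, a table reduced to 1 probe set per gene, a replicate block (fixed or random), sample means, each array left out, and KO replicate 3 left out. Combinations with KO replicate 3 left out, and the Xist covariate, were added after seeing the data.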

Additional observations from a re-analysis of the deposited data

How the results depend on the processing

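Of 2257 alternative values of the 7 genes, 2032 kept their direction and their side of the threshold, 25 gained a call, 29 lost one, 5 changed sign with 1 value past the threshold, and 166 changed sign with neither value past it. The averaged KO against WT comparison called 1 gene in the chosen fit. It called 0 with cyclic loess, with probe sets above the median mean, with the intensity trend and robust prior, with the random replicate block, with the Xist covariate, and with sample means, both with and without KO replicate 3. It called 2 with the fixed replicate block (Slc38a1, and Myc at -0.49, limma adjusted p = 0.0179). That block gives KO and WT arrays of the same number a shared effect, though the numbers did not pair KO with WT. The averaged comparison also called 2 without KO replicate 3, alone or with the random replicate block, array weights, cyclic loess or Xist. With single arrays left out it called 0 to 1; Slc38a1 lost its call in most of these, with an adjusted p of up to 0.1002 (without DP KO replicate 3). Myc passed without CD27 KO replicate 3 (-0.63, adjusted p = 0.0459) and with array weights (-0.73, adjusted p = 0.00785). The averaged Tfrc difference of 0.03 turned to -0.31 without KO replicate 3, also with the random replicate block, to -0.30 with array weights, -0.29 with cyclic loess and -0.41 with Xist.

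KO against WT in CD27 cells called 0 genes, and 1 with array weights (Myc, -0.74, adjusted p = 0.0480) or without KO replicate 3 in 5 fits (Tfrc). In CD11b cells it called 0, and 1 without KO replicate 3 in 5 fits (Myc). WT CD11b against CD27 called 0, and 1 (Tfrc) with the compared groups alone and without KO replicate 3 in 5 fits. All other comparisons, the F test included, called 0 of the 7 genes under every alternative run, each replicate left out included. Neither replicate block changed any other call of these genes. Over all probe sets, single arrays left out gave 117 to 365 calls in CD27 cells (321 in the chosen fit), 46 to 199 in DP (140), 182 to 1094 in CD11b (457), 1959 to 3519 in the average (2862) and 1052 to 1957 in WT CD11b against CD27 (1771). The compared groups alone gave 14, 17 and 34 calls in CD27, DP and CD11b cells, array weights gave 3974 in CD27 cells, and sample means gave 71 in the average. The cause of these shifts was not tested.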
